A study of Mus musculus with 8 samples.

Results

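The proteasome subunit genes were taken from the table of raw counts as every row whose symbol begins with *Psma*, *Psmb*, *Psmc*, *Psmd*, *Psme* or *Psmf* followed only by digits. This gave 43 of the 16540 gene symbols in the table. They comprise 15 genes of the 20S core (8 *Psma* genes and *Psmb1* to *Psmb7*), 3 immunoproteasome genes (*Psmb8* to *Psmb10*), 20 genes named for the 19S particle (6 *Psmc* and 14 *Psmd*), 4 activators (*Psme1* to *Psme4*) and the inhibitor *Psmf1*. All 43 passed the filter on low counts and were tested together with all 12307 genes that did.

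Liver RNA was sequenced from 4 vehicle-treated and 4 ISOGK-treated male *Apoe*-/- mice, with 1 library per mouse. All 8 mice lacked apolipoprotein E by their genotype label, which raises plasma cholesterol, and all were fed a Western diet. The treated mice received isoginkgetin (ISOGK), a biflavonoid of *Ginkgo biloba* that the study describes as an inhibitor of ATP-citrate lyase, by intraperitoneal injection at 20 mg/kg per day for 8 weeks, and the others received vehicle, named DMSO in the table. The age of the mice is not given in the sources used here, and the genotype cannot be read from these counts, since every library had between 3252 and 6489 on *Apoe*.

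The 26S proteasome is the machine that degrades ubiquitin-tagged proteins. Its barrel, the 20S core, is built of rings of alpha subunits around rings of beta subunits, of which *Psmb5*, *Psmb6* and *Psmb7* encode the ones that cut peptide bonds, and its 19S caps recognise ubiquitin, unfold the substrate with a ring of ATPases and feed it into the barrel. Transcription of the constitutive subunit genes is driven jointly by the factor NFE2L1 when proteasome capacity is short, whereas interferon induces *Psmb8*, *Psmb9* and *Psmb10*, which replace the constitutive catalytic subunits and favour the making of peptides for MHC class I. The study also cites earlier work in which ISOGK lowered 20S proteasome activity in HeLa cells. Neither the activity of the proteasome nor the amount of its proteins was measured in these data, and the part of such an effect in the values here was not tested.

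In ISOGK-treated livers 10 genes named for the 19S particle and 2 of the 20S core were higher, by 1.25-fold to 1.67-fold. Among the 10 was *Psmd9*, which encodes an assembly chaperone. No immunoproteasome gene or activator was called in either direction. In all, 12 of the 43 genes were higher at an adjusted p under 0.05 (27.9%, edgeR's quasi-likelihood test with Benjamini-Hochberg adjustment over all 12307 genes), where 4.11% of all genes tested were called higher and 7.55% in either direction. None of the 43 was called lower, where 3.44% of all genes were, and none was lower at an unadjusted p under 0.05 in this edgeR fit, while 25 were higher at that level, where 11.6% and 12.5% of all genes were. With the Wald test of DESeq2 16 were called higher, where 6.19% of all genes were. With it none was called lower and 1, an immunoproteasome gene, was lower at an unadjusted p under 0.05. With limma-voom 9 were called higher, where 3.75% of all genes were, and none lower. The median log2 fold change over the 43 genes was 0.30, a 1.23-fold rise, against 0.00 over all genes tested, and it lay above 0 for 37 and below 0 for 6, where 50.2% of all genes lay above 0. The changes were small, and none of the 43 passed an absolute log2 fold change of 1, a size that 0.999% of all genes exceeded upward and 0.626% downward at an adjusted p under 0.05.

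**Figure D1:**
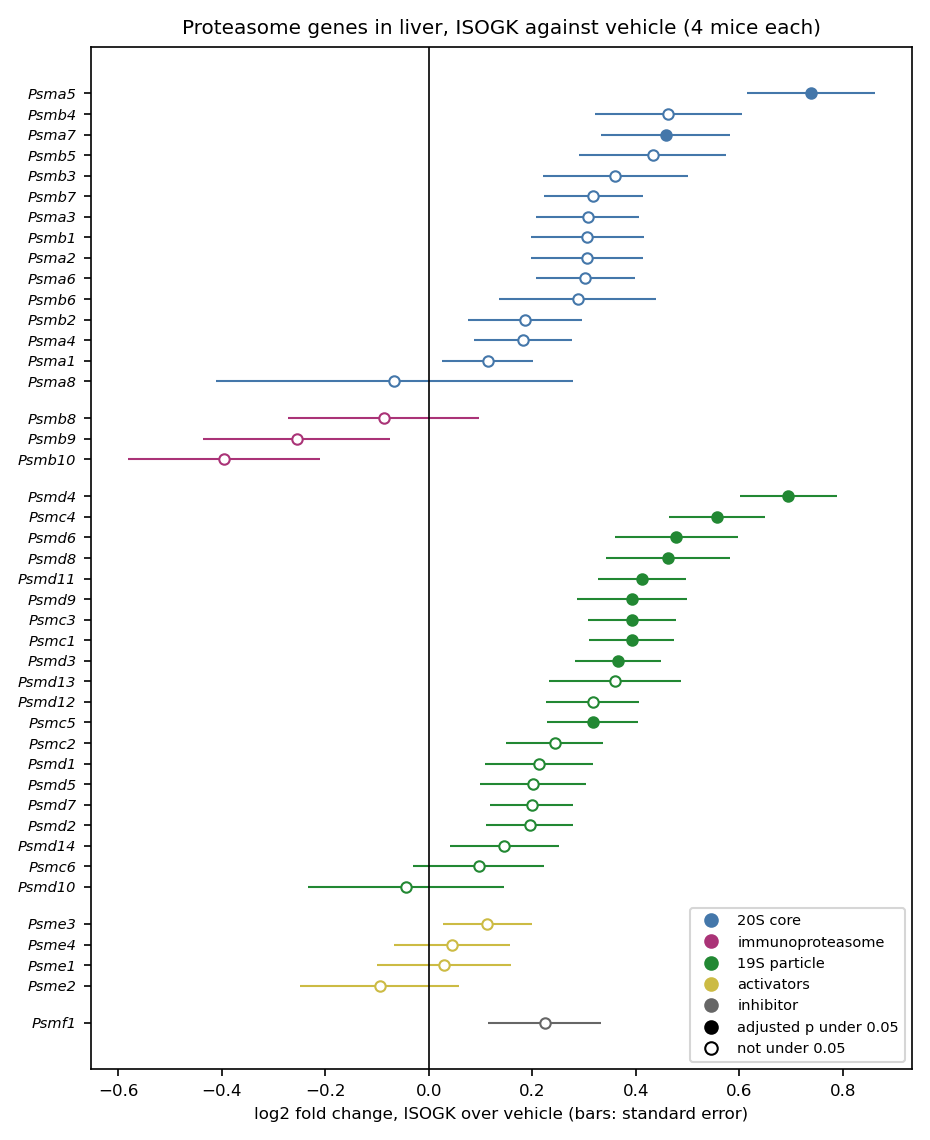
Log2 fold change (horizontal axis, ISOGK over vehicle, 4 mice each) of each of the 43 proteasome genes, with bars for the standard error and filled points for an adjusted p under 0.05. The 10 called genes named for the 19S particle and the 2 of the 20S core lie to the right of 0. The 3 immunoproteasome genes lie to the left.

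As a share of each library's total counts, that is without TMM factors, the 43 genes together took 0.237%, 0.234%, 0.256% and 0.238% in vehicle mice 1 to 4. They took 0.284%, 0.265%, 0.260% and 0.276% in ISOGK mice 1 to 4. The groups did not overlap, with means of 0.241% ± 0.00977 and 0.271% ± 0.0107 (SD, n = 4 each).

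The number of called genes depended on single mice. It was 3 to 9 when any of the 4 vehicle mice or ISOGK mouse 1, 2 or 4 was left out (vehicle 1, 7; vehicle 2, 4; vehicle 3, 3; vehicle 4, 6; ISOGK 1, 9; ISOGK 2, 6; ISOGK 4, 7) and 21 without ISOGK mouse 3. Over all genes tested, 2.29%, 1.76%, 2.17% and 2.4% were called higher without vehicle mice 1 to 4 in turn. Without ISOGK mice 1 to 4 in turn these shares were 4.1%, 2.03%, 5.72% and 3.15%. Scaling by library size alone, without the TMM normalization, left 3, where 2.13% of all genes were called higher. It lowered the median of all genes to -0.13 and turned the calls over all genes from 506 higher and 423 lower to 262 higher and 804 lower. Relative to the median of all genes, 33 of the 35 genes of the 20S core and 19S particle were higher under either scaling. *Psma5*, *Psmc4* and *Psmd4* kept an adjusted p under 0.05 in all 17 alternatives.

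The 43 genes lie on 16 chromosomes, with at most 8 on any of them. To show what letters their promoters hold, RefSeq windows of 300 bases (GRCm38.p6) around the start sites were searched on both strands, and 36 of the 43 genes had at least 1 window (39 windows in all). The core of the antioxidant response element, TGACNNNGC, to which NFE2L1 and NFE2L2 bind with small MAF partners, was in 6 of the 39 windows (15.4%) against 12.4% of 32851 windows of all genes. They belong to *Psmb5*, *Psmb6*, *Psmd9*, *Psmc6*, *Psmd12* and *Psme4*, of which only *Psmd9* was called. The core of the interferon-gamma activated sequence, TTCNNNGAA, was in 2 of 39 windows (5.13%), those of *Psmb8* and *Psmd2*, against 8.30% of all windows, and the letters CCAAT were in 33.3% against 37.4%. A match is a run of letters and not a measured binding site.
Of the 6 genes whose windows hold TGACNNNGC, the upstream bases of *Psmd9*, *Psmb6* and *Psmb5* are shown. *Psmd9* was called, and *Psmb6* and *Psmb5* encode catalytic subunits. These genes were taken for having the match, so its presence in each stretch adds no support. Their matches lie 31, 9 and 47 bases before the start, and that of the uncalled activator *Psme4*, which is not shown, 7 bases before it. Each stretch shown is written 5′ to 3′ on the strand of the gene and holds no annotated exon of that gene, and capitals mark the match. The stretch of *Psmb5* has 73 bases and ends before the RefSeq start, because the bases nearest the start are annotated as its exon.
*Psmd9*, chr5:123228090-123228189, plus strand: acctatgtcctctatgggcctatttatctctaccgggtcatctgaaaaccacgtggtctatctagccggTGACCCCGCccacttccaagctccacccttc
*Psmb6*, chr11:70525257-70525356, plus strand: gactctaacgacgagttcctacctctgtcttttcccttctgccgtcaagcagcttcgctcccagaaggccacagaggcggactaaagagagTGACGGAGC
*Psmb5*, chr14:54618023-54618095, minus strand: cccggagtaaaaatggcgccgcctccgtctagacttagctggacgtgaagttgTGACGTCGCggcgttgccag

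The 19S particle held most of the called genes. The 20 genes named for it, with the assembly chaperones *Psmd5*, *Psmd9* and *Psmd10* among them, had a median log2 fold change of 0.34. Their range was from -0.04 to 0.69. Of the 20, 10 were called higher, 15 were higher at an unadjusted p under 0.05, and 13 were higher without overlap between the groups. Over all genes tested, 4.11%, 12.5% and 7.91% were higher by these measures in turn. None was lower by any of these measures, where 7.35% of all genes were lower without overlap.

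*Psmd4* (chr3:95032694-95042614, GRCm38) encodes a subunit of the cap that binds ubiquitin chains. Its level in CPM, counts scaled to library size with TMM factors, was 67.5, 58.9, 69.4 and 70.5 in vehicle mice 1 to 4 and 105, 103, 103 and 119 in ISOGK mice 1 to 4. Every treated mouse was above every vehicle mouse, and the log2 fold change of 0.69 (SE 0.09, 1.62-fold, edgeR adjusted p = 0.00178) was the largest among the 19S genes.

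Of the 6 ATPases that form the unfolding ring, 4 were higher, with a median log2 fold change of 0.35 over the 6. *Psmc4* (chr7:28041707-28050101) had 51.4, 47.8, 50.9 and 56.1 CPM in the vehicle group and 75.8, 70.4, 71.8 and 85.0 CPM in the ISOGK group, a 1.47-fold difference without overlap (log2 fold change 0.56, SE 0.09, edgeR adjusted p = 0.00496). *Psmc1*, the ATPase with the highest level per length, had 102, 90.7, 92.9 and 94.0 CPM in vehicle mice and 125, 118, 126 and 129 CPM in treated mice (log2 fold change 0.39, edgeR adjusted p = 0.0152). The remaining called ATPases were of similar size and also did not overlap between the groups.
*Psmc3* was at 88.0, 86.1, 88.4 and 86.6 CPM in vehicle mice and 114, 114, 105 and 125 CPM in treated mice (log2 fold change 0.39, edgeR adjusted p = 0.0173). *Psmc5* was at 41.8, 37.9, 40.7 and 44.6 CPM against 51.6, 48.0, 49.96 and 55.9 CPM (log2 fold change 0.32, edgeR adjusted p = 0.0495), and lost the call in 13 of 17 alternatives. In the annotation 8.25% of the exon bases of *Psmc3* are shared with *Slc39a13* on the opposite strand. The ATPases that were not called, *Psmc2* and *Psmc6*, had log2 fold changes of 0.24 and 0.10, and their groups overlapped.

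The lid of the cap, which holds the deubiquitinating enzyme *Psmd14* on a scaffold of related subunits, gave 4 of the calls. *Psmd11* rose from 67.8, 74.4, 64.4 and 67.7 CPM to 86.3, 96.9, 91.9 and 89.8 CPM (log2 fold change 0.41, edgeR adjusted p = 0.0138). *Psmd3* rose from 65.2, 63.5, 68.8 and 70.8 CPM to 83.9, 86.0, 83.5 and 92.6 CPM (log2 fold change 0.37, edgeR adjusted p = 0.0224). In both the treated mice lay within a narrow range above all vehicle mice.
*Psmd6* had a wider vehicle group, with 55.5, 37.2, 48.0 and 41.9 CPM against 61.9, 59.8, 64.5 and 68.1 CPM (log2 fold change 0.48, edgeR adjusted p = 0.0322). *Psmd8* had a wider treated group, with 89.2, 92.6, 87.8 and 95.4 CPM against 117, 125, 103 and 158 CPM (log2 fold change 0.46, edgeR adjusted p = 0.0384). ISOGK mouse 4 gave the highest value in each of these 2 genes, and the groups still did not overlap. *Psmd12*, another lid scaffold, fell just outside the threshold (log2 fold change 0.32, edgeR adjusted p = 0.0515), and *Psmd14* had a log2 fold change of 0.15 with overlapping groups.

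*Psmd5*, *Psmd9* and *Psmd10* carry 19S names but encode chaperones that help assemble the base of the cap and leave the finished particle. *Psmd9* was called, with 32.8, 30.7, 31.6 and 31.7 CPM in vehicle mice and 47.1, 45.3, 33.9 and 40.1 CPM in treated mice (log2 fold change 0.39, edgeR adjusted p = 0.0460), and lost the call in 10 of 17 alternatives. In the annotation 25.5% of its exon bases are shared with a long non-coding RNA gene on the opposite strand, and whether counting used strand is not stated, so reads of that gene cannot be told apart from its own. *Psmd5* and *Psmd10* had log2 fold changes of 0.20 and -0.04 and were not called.

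**Figure D2:**
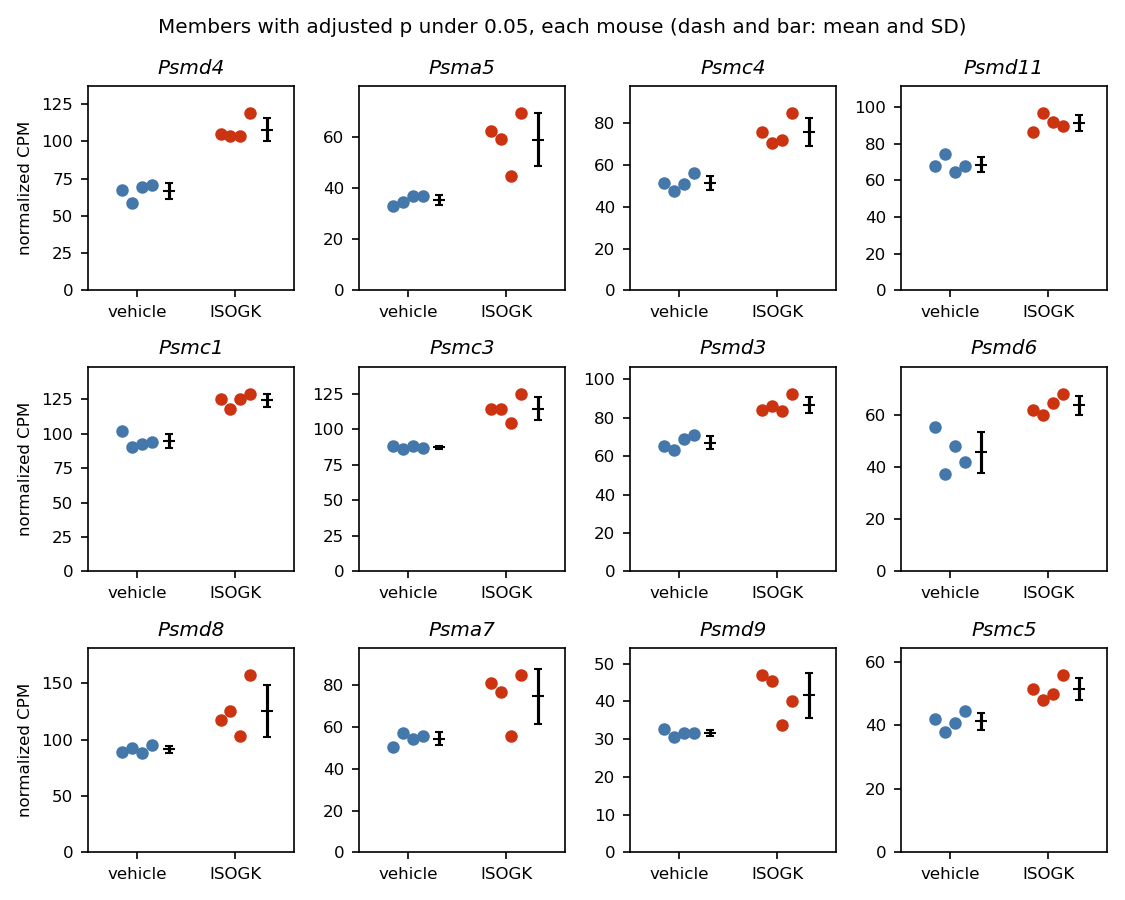
TMM-normalized CPM (vertical axes, from 0) of the 12 genes with an adjusted p under 0.05 in each vehicle and ISOGK mouse, with dashes and bars for the mean and SD of 4 mice. The groups are apart in 11 of the 12 panels, and in *Psma7* the lowest treated mouse, at 55.4 CPM, lies among the vehicle mice. The genes were chosen by the test on these same values, so their separation adds no further support.

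The 20S core had a median log2 fold change of 0.31, with 14 of its 15 genes above 0, but its treated mice were more spread. Of the 15, 2 were called higher, 10 were higher at an unadjusted p under 0.05 in edgeR and 5 were higher without overlap between the groups. Over all genes tested, 4.11%, 12.5% and 7.91% were higher by these measures in turn. With DESeq2 5 were called, where 6.19% of all genes were called higher, and with limma-voom 1, where 3.75% were.

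Among the alpha subunits, which form the outer rings and the gate of the barrel, *Psma5* (chr3:108256926-108279974) had the largest log2 fold change of all 43 genes. It was at 33.1, 34.4, 36.7 and 36.8 CPM in vehicle mice and 62.4, 59.0, 44.6 and 69.3 CPM in ISOGK mice, a 1.67-fold difference without overlap (log2 fold change 0.74, SE 0.12, edgeR adjusted p = 0.00485). *Psma7* had 50.2, 57.3, 54.2 and 55.6 CPM against 81.1, 76.7, 55.4 and 84.9 CPM (log2 fold change 0.46, edgeR adjusted p = 0.0455), and lost the call in 11 of 17 alternatives. In both, ISOGK mouse 3 was the lowest treated mouse, and in *Psma7* it lay within the vehicle range. The other alpha genes of the liver proteasome, *Psma1* to *Psma4* and *Psma6*, had log2 fold changes between 0.11 and 0.31 and were not called. *Psma8*, the alpha subunit of the testis proteasome, had 8 to 17 counts per library and gives no reading of a change at this depth.

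None of the 7 constitutive beta subunits was called in edgeR, where 4.11% of all genes were called higher. At an unadjusted p under 0.05, 5 were higher, where 12.5% of all genes were. All 7 had a log2 fold change above 0, where 50.2% of all genes did, and the median was 0.32. DESeq2 called 2, where it called 6.19% of all genes higher, and limma-voom none, where it called 3.75%. When ISOGK mouse 3 was left out 6 were called, where 5.72% of all genes were called higher. *Psmb5*, the chymotrypsin-like catalytic subunit, had 34.96, 36.4, 36.7 and 36.5 CPM in vehicle mice and 49.6, 51.1, 34.0 and 60.4 CPM in ISOGK mice (log2 fold change 0.43, SE 0.14, edgeR adjusted p = 0.0861). *Psmb6*, the caspase-like subunit, had 39.2, 47.8, 49.1 and 47.1 CPM against 61.6, 58.1, 38.1 and 65.9 CPM (log2 fold change 0.29, SE 0.15, edgeR adjusted p = 0.272). ISOGK mice 1, 2 and 4 were above every vehicle mouse in both genes, whereas ISOGK mouse 3 was below every vehicle mouse in both. *Psmb7*, the trypsin-like subunit, had 60.7, 61.8, 62.3 and 59.0 CPM against 77.1, 71.1, 67.8 and 88.0 CPM, without overlap but outside the threshold (log2 fold change 0.32, SE 0.10, edgeR adjusted p = 0.0664). Processed pseudogenes named for *Psmb5*, *Psmb6* and *Psmb7* exist in the annotation, and reads of near-identical copies could have been split between them and the genes.

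Over the 20S core as a whole, ISOGK mouse 3 was nearer to the vehicle mice than the other treated mice were. As the median over the 15 genes of the log2 difference from the vehicle mean, the vehicle mice lay between -0.03 and 0.03, ISOGK mice 1, 2 and 4 at 0.38, 0.31 and 0.53, and ISOGK mouse 3 at -0.02. It was the lowest treated mouse in 13 of the 15 genes, while ISOGK mouse 4 was the highest in 14. In 5 of them, *Psma2*, *Psma3*, *Psma5*, *Psma6* and *Psmb7*, it was nevertheless above every vehicle mouse. In the 19S particle all treated mice were above all vehicle mice, with medians of 0.33, 0.27, 0.22 and 0.43 in ISOGK mice 1 to 4 against -0.05 to 0.05 in vehicle mice.
The library of ISOGK mouse 3 had the lowest total, 17457106 counts, and that of ISOGK mouse 4 the lowest TMM factor, 0.883. The part of depth and scaling in these positions was not tested. A correction of each library for GC content and exon length was chosen after the data had been seen. After it the 20S median of ISOGK mouse 3 was 0.04, within the corrected vehicle range of -0.06 to 0.07. The 19S median of that mouse was then 0.26, against -0.07 to 0.06 in vehicle mice. Proteasome genes have a shorter length of all exons joined together than all genes tested (median 2820 bases against 4478.5) and nearly the same GC content (50.4% against 50%).

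**Figure D3:**
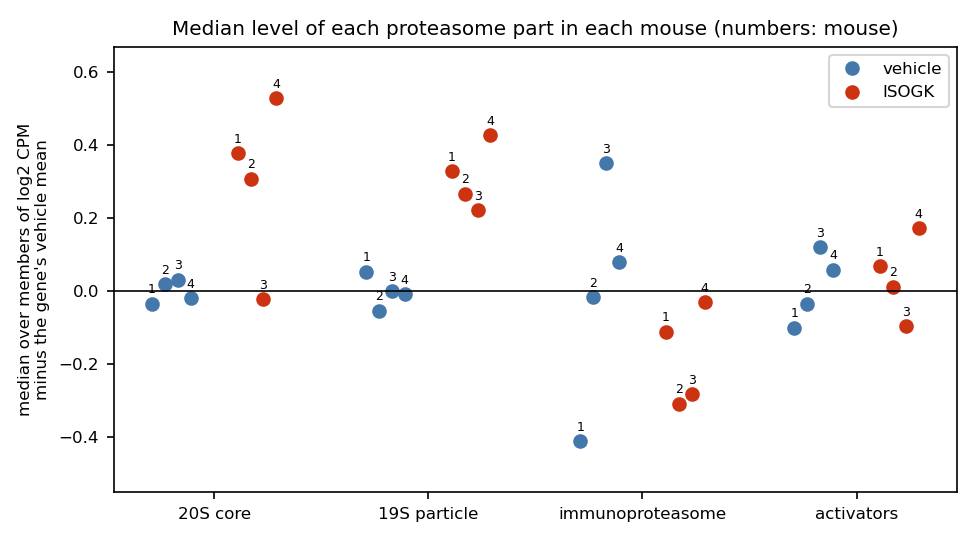
Median over the genes of each proteasome part of the log2 CPM difference from the vehicle mean (vertical axis), 1 point per mouse with the mouse number. In the 19S particle the treated mice lie at 0.22 to 0.43 and above all vehicle mice, in the 20S core ISOGK mouse 3 lies at -0.02 among them, and in the immunoproteasome and the activators the groups overlap.

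The immunoproteasome genes were not among those called. None of the 3 was called in edgeR in either direction, none had an unadjusted p under 0.05, and their log2 fold changes were all below 0, with a median of -0.26. At that unadjusted level 1 of the 3 was lower with DESeq2, with library size alone, with the looser filter and with the GC content and length correction. The same held without vehicle mouse 1 and without ISOGK mouse 4. *Psmb8* (chr17:34197721-34201454) had 13.4, 18.0, 26.5 and 17.2 CPM in vehicle mice and 20.5, 16.7, 14.98 and 18.7 CPM in ISOGK mice (log2 fold change -0.09, SE 0.18, edgeR adjusted p = 0.817). Its sign rested on vehicle mouse 3, without which the log2 fold change was 0.13. *Psmb9*, which lies 9956 bases from *Psmb8* on the same chromosome, had 4.11, 4.43, 6.54 and 6.38 CPM against 4.85, 4.22, 4.75 and 4.19 CPM (log2 fold change -0.26, SE 0.18, edgeR adjusted p = 0.425). *Psmb10* (chr8:105935735-105938444) had 10.8, 14.3, 18.4 and 15.3 CPM against 12.2, 10.1, 8.36 and 14.1 CPM (log2 fold change -0.40, SE 0.19, edgeR adjusted p = 0.216). In all 3 genes the groups overlapped and vehicle mouse 3 had the highest value. Exon bases of *Psmb8* are shared with an antisense gene (14.7%) and those of *Psmb9* with *Tap1* (5.79%), both on the opposite strand. Of the constitutive partners, *Psmb7* shares 11.8% of its exon bases with *Nek6* on the opposite strand and *Psmb5* 12.1% with a microRNA gene on the same strand.

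Since each inducible subunit takes the place of 1 constitutive subunit, the counts of each pair were compared within libraries, a ratio that no scaling between libraries can change. For every 100 counts of *Psmb7* there were 17.9, 23.1, 29.6 and 25.9 counts of *Psmb10* in vehicle mice and 15.8, 14.2, 12.4 and 16.1 in ISOGK mice. All treated mice were below all vehicle mice, and the ratio was lower by 38.7% (log2 difference -0.71; exact two-sided permutation, p = 0.0286, which is the lowest possible with 4 mice a group, and 0.0858 after Benjamini-Hochberg adjustment over the 3 pairs). The log2 difference lay between -0.84 and -0.60 when single mice were left out. Reads of *Nek6* counted on *Psmb7* would enter this ratio, and their part was not tested. The ratio combines a higher *Psmb7* and a lower *Psmb10*, neither of which passed the test on its own.
Per 100 counts of *Psmb5* there were 38.5, 49.5, 72.3 and 47.3 counts of *Psmb8* in vehicle mice and 41.4, 32.7, 44.1 and 31.1 in ISOGK mice (log2 difference -0.45; exact permutation test, p = 0.114, adjusted 0.114). The value rested in part on vehicle mouse 3, without which it was -0.28. Per 100 counts of *Psmb6* there were 10.5, 9.30, 13.3 and 13.6 counts of *Psmb9* in vehicle mice and 7.92, 7.31, 12.5 and 6.40 in ISOGK mice (log2 difference -0.49; exact permutation test, p = 0.114, adjusted 0.114). In these 2 pairs the groups overlapped, and after adjustment none of the 3 pairs was under 0.05.

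**Figure D4:**
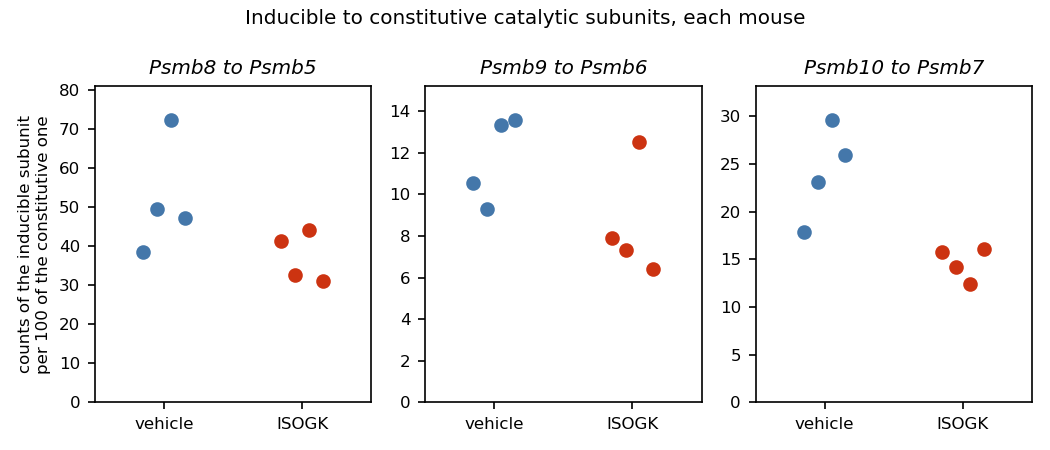
Counts of each inducible catalytic subunit per 100 counts of the constitutive subunit it replaces (vertical axes, from 0), 1 point per mouse. The groups are apart for *Psmb10* to *Psmb7* (12.4 to 16.1 in ISOGK mice, 17.9 to 29.6 in vehicle mice) and overlap for the other pairs.

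The immunoproteasome is more abundant in immune cells than in hepatocytes, so markers of other cells are given here. In bulk tissue, fewer cells of a type and less RNA per cell cannot be told apart. Of 12 markers of Kupffer cells and macrophages, 10 had a log2 fold change below 0, and the median was -0.35. *Clec4f* and *Itgam* lay above 0 (0.06 and 0.18), as did 50.2% of all genes tested. *Marco* was at 170 CPM in vehicle mouse 1 against 18.6 to 57.6 CPM in the other vehicle mice. *Vsig4* was at 5.34 CPM in ISOGK mouse 4 against 75.0 to 94.4 CPM in the other treated mice. The summed level was 1387.5 to 1759.4 CPM in vehicle mice and 1115 to 1453.2 CPM in ISOGK mice. Of the 12, 1 was called lower, where 3.44% of all genes were. It was *Cd68*, the marker of phagocyte lysosomes, with 45.4, 48.5, 51.8 and 56.6 CPM against 39.7, 31.8, 30.01 and 34.4 CPM (log2 fold change -0.57, edgeR adjusted p = 0.00900). Of 17 leukocyte markers 12 could be tested, none was called, and the summed level was 340.4 to 465.6 CPM against 322.9 to 384.3 CPM. None of these markers was at 0 over all libraries, and the part of macrophage or leukocyte RNA in the immunoproteasome values was not tested.

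The activators dock on the ends of the 20S barrel in place of a 19S cap. None of the 4 was called in edgeR, none had an unadjusted p under 0.05, and their median log2 fold change was 0.04. *Psme1*, an interferon-inducible subunit of a heteromeric activator, had 51.1, 57.5, 69.8 and 64.8 CPM in vehicle mice and 66.9, 61.0, 49.4 and 71.0 CPM in ISOGK mice (log2 fold change 0.03, SE 0.13, edgeR adjusted p = 0.915). Its partner *Psme2*, 5911 bases away on the same chromosome, had 27.3, 33.3, 39.3 and 34.6 CPM against 34.1, 33.5, 22.2 and 36.2 CPM (log2 fold change -0.09, SE 0.15, edgeR adjusted p = 0.756). ISOGK mouse 3 was the lowest of all mice in both genes.
*Psme3*, the nuclear activator, had 55.5, 49.3, 55.2 and 56.5 CPM against 54.9, 58.3, 57.8 and 63.3 CPM (log2 fold change 0.11, SE 0.09, edgeR adjusted p = 0.462). *Psme4*, the large single-chain activator, had 67.8, 66.4, 60.0 and 55.5 CPM against 67.0, 55.1, 75.7 and 59.8 CPM (log2 fold change 0.04, SE 0.11, edgeR adjusted p = 0.846). *Psmf1*, which inhibits the core in the test tube, had 23.5, 26.3, 20.9 and 24.1 CPM against 26.03, 31.1, 29.2 and 24.2 CPM (log2 fold change 0.22, SE 0.11, edgeR adjusted p = 0.232). The groups overlapped in all 5 genes, and the signs of *Psme1*, *Psme3* and *Psme4* turned when libraries were scaled by size alone (log2 fold changes of -0.11, -0.02 and -0.08).

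Levels were compared between genes as mean CPM per kilobase of exon. The 20S genes had a median of 21.3 in vehicle mice and 27.3 in ISOGK mice, and the 19S genes 15.6 and 20.4. The activators had 18.7 and 18.9, and the immunoproteasome genes 5.56 and 5.24. *Psma6* had the highest level in both groups (58.8 and 72.5 CPM per kilobase), followed by *Psmc1* (49.0 and 64.3) and *Psmb5* (40.2 and 54.2).
Each inducible subunit was below its constitutive counterpart, with 5.56 for *Psmb8* against 40.2 for *Psmb5*, 1.47 for *Psmb9* against 24.5 for *Psmb6*, and 8.62 for *Psmb10* against 17.8 for *Psmb7* in vehicle mice. Within the order of the 43 genes, *Psma5* stood at rank 13 in vehicle mice and rank 5 in ISOGK mice, and *Psmd4* moved from rank 16 to 11. The length is that of all annotated exons joined together, so genes with long rare transcripts have a level that is too low on this scale.

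**Figure D5:**
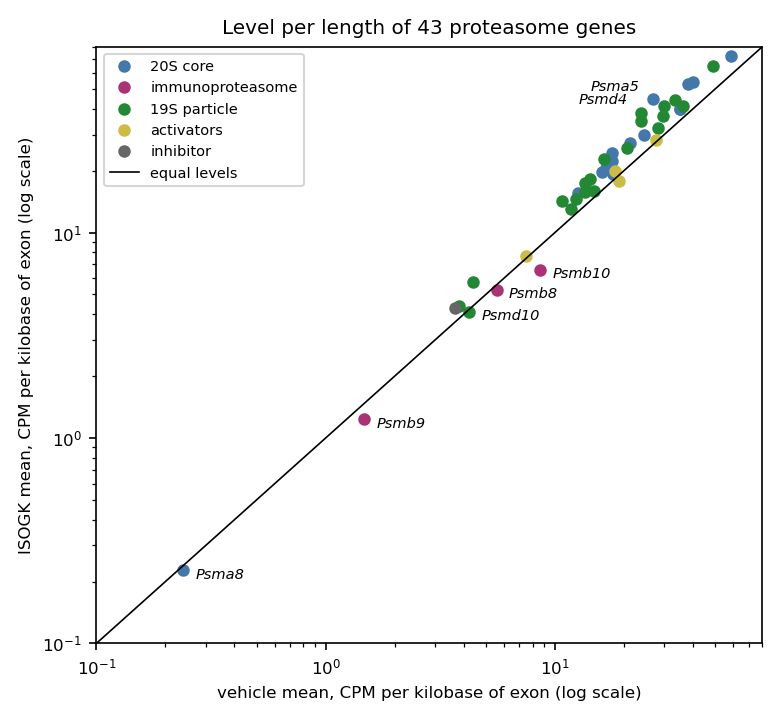
Mean level of each of the 43 genes in CPM per kilobase of exon, vehicle on the horizontal and ISOGK on the vertical axis, both on a log scale, with a line of equal levels. Most genes of the 20S core and 19S particle lie above the line, and the immunoproteasome genes lie below it at levels under 10.

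In the lists of other genes of the pathway, 4 genes were called higher and 1 lower. Among 22 assembly factors and proteins associated with the proteasome, 1 was called higher and none lower, where 4.11% of all genes were called higher and 3.44% lower, so the count is near the background. The median log2 fold change was 0.16 and 19 lay above 0, where 50.2% of all genes did. Without overlap between the groups 4 were higher, where 7.91% of all genes were. The called gene was *Rad23b*, which shuttles ubiquitinated proteins to the proteasome, with 145, 137, 127 and 139.5 CPM in vehicle mice and 160.2, 177, 185 and 167 CPM in ISOGK mice (log2 fold change 0.33, edgeR adjusted p = 0.0433), and it lost the call in 10 of 17 alternatives. *Pomp*, the maturation factor of the 20S core, had 58.7, 53.6, 47.6 and 49.1 CPM against 57.0, 53.4, 50.3 and 65.7 CPM (log2 fold change 0.12, edgeR adjusted p = 0.549), with overlapping groups.

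Among 16 genes for NFE2L1, its relatives and its processing, 2 were called higher, where 4.11% of all genes were, and none lower. Their median log2 fold change was 0.14. *Ufd1* and *Nploc4* encode the cofactors with which the ATPase VCP pulls ubiquitinated proteins, NFE2L1 among them, out of the endoplasmic reticulum. *Ufd1* had 19.6, 17.8, 20.0 and 19.5 CPM against 27.4, 24.8, 25.8 and 28.9 CPM (log2 fold change 0.47, edgeR adjusted p = 0.0101), and kept the call in all 17 alternatives. *Nploc4* had 84.8, 75.7, 84.1 and 84.8 CPM against 106, 106, 103 and 106 CPM (log2 fold change 0.35, edgeR adjusted p = 0.0242), and lost the call in 7. Neither pair of groups overlapped.
*Nfe2l1* itself had 122, 116, 111 and 117 CPM against 117, 152, 146 and 138 CPM (log2 fold change 0.25, edgeR adjusted p = 0.142), with ISOGK mouse 1 within the vehicle range. *Nfe2l2* had 60.9, 47.3, 59.7 and 49.7 CPM against 38.8, 52.6, 69.3 and 53.5 CPM (log2 fold change -0.02, edgeR adjusted p = 0.946). NFE2L1 is known to be controlled by its cleavage and turnover, which counts of its RNA do not measure.

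Of 17 genes for ubiquitin and the enzymes that activate and pass it on, 1 was called higher, near the 4.11% of all genes, with a median log2 fold change of 0.09. It was *Rps27a*, which encodes ubiquitin fused to a ribosomal protein, with 98.7, 94.9, 99.2 and 90.5 CPM against 121, 122, 117 and 149.98 CPM (log2 fold change 0.41, edgeR adjusted p = 0.0275). The call was lost in 7 of 17 alternatives, and the groups did not overlap. Among those 17 genes for ubiquitin and its enzymes, 13 lay above 0, where 50.2% of all genes did. Without overlap between the groups 5 were higher, where 7.91% of all genes were. Of 20 genes for MHC class I processing and the interferon response, 15 lay below 0 with a median of -0.14, and 1 was called lower, near the 3.44% of all genes. It was *Irf1*, an interferon-induced transcription factor of the immunoproteasome genes, with 35.1, 32.9, 36.0 and 30.04 CPM against 28.5, 21.0, 26.3 and 22.5 CPM (log2 fold change -0.45, edgeR adjusted p = 0.0348), and the call was lost in 5 of 17 alternatives. *Tap1*, the neighbour of *Psmb9*, had a log2 fold change of 0.01 with overlapping groups.

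The libraries held 17457106 to 24461854 counts. The 10 hepatocyte markers took a summed 154170 to 167390 CPM in vehicle mice and 144450 to 188890 CPM in ISOGK mice, with none called. Of 12 endothelial and stellate markers none was called, and the summed level was 565.1 to 677.8 CPM against 488.2 to 694.2 CPM. All 13 skeletal muscle markers were highest in vehicle mouse 4, which had 1968 counts on them where no other library had more than 16, and the 6 proteasome genes called without that mouse were *Psma5*, *Psmc1*, *Psmc4*, *Psmd3*, *Psmd4* and *Psmd11*. The libraries come from separate mice by their labels, and the p-values measure the spread between these mice.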

How the data were processed

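Liver RNA of 4 vehicle-treated and 4 ISOGK-treated mice was measured by single-end RNA sequencing, 1 library per mouse. The authors aligned the reads with HISAT2 and deposited whole-number counts per gene symbol made with StringTie, without normalization. The submitters' processing notes name the build mm10, and whether counting used strand is not given in the sources used here. Samples were grouped by their labels, and the columns named DMSO were taken as the vehicle group, as in the study's scheme.

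In R 4.3.3 with edgeR 4.0.16, low genes were removed by filterByExpr (minimum count 10, minimum total 15), libraries were scaled by TMM, and ISOGK was compared with vehicle by the robust quasi-likelihood F-test. A gene was called at an adjusted p under 0.05 (Benjamini-Hochberg, over all genes tested). Printed CPM use TMM factors, and log2 CPM a prior count of 2. Ratios of subunit pairs used log2 of counts plus 0.5 and exact permutation tests over mice. The common biological coefficient of variation was 0.164, and reads without molecular identifiers give counting precision only.

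The members and lists were chosen with earlier results of these data known. Values in every mouse are given for called members, for *Psmb5* to *Psmb10*, *Psme1* to *Psme4* and *Psmf1*, for called genes of the other lists, and for *Nfe2l1*, *Nfe2l2* and *Pomp*. A few other genes were named after their values had been seen. Coordinates, exon lengths and overlaps are from GENCODE M21 (GRCm38), and promoter sequences from RefSeq (GRCm38.p6).

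Alternative fits used DESeq2 1.42.0, limma-voom (limma 3.58.1), edgeR with the size factors of DESeq2 or with library sizes only, a looser and a stricter filter, the non-robust test, a block for the replicate number, and 7 of the 8 mice at a time. After the data had been seen, the fit with library offsets for GC content and exon length was added. The tests were checked on simulated counts.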

Additional observations from a re-analysis of the deposited data

Results flagged for a closer look

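Far from the other mice of their group lay 4 values, by Dixon's criterion at the 95% level, among 100 groups of 4 examined, where chance gives 5. *Psmb4*, a structural beta subunit, was at 70.2 CPM in ISOGK mouse 3, where the other treated mice were at 112 to 115 CPM and the vehicle mice at 69.4 to 78.0 CPM. *Psmd4*, the ubiquitin receptor, was at 119 CPM in ISOGK mouse 4 against 103 to 105 CPM in the other treated mice. *Psmb5* was at 34.96 CPM in vehicle mouse 1, where the other vehicle mice spanned only 36.4 to 36.7 CPM. *Psma8*, with 8 to 17 counts per library, was at 0.897 CPM in ISOGK mouse 2 against 0.441 to 0.471 CPM in the other treated mice. The cause of these positions was not tested.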

How the results depend on the processing

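With DESeq2, 1421 genes were called over the whole table (762 higher, 659 lower) in place of 929 (506 and 423), and with library size alone 262 were called higher and 804 lower. Leaving out single mice gave 379 to 1235 calls (219 to 712 higher, 160 to 523 lower). The 12 proteasome calls became 3 with library size alone and 3 to 21 without single mice, while no proteasome gene was called lower in any alternative. The 4 calls among other pathway genes became 7 with DESeq2, 1 with library size alone, 7 with the GC content and length correction and 1 to 5 without single mice, and the 1 lower call became 0 to 2. Mice with the same replicate number share only that number (correlations of their deviations from the group means of 0.013, -0.0144, 0.0754 and 0.0849). With that number as a block 9 proteasome genes (all among the 12) and 2 other pathway genes were called higher, where 3.34% of all genes were. The median log2 fold change of the 19S particle lay between 0.28 and 0.36 without single mice and was 0.20 with library size alone, and that of the activators lay between 0.01 and 0.08 and was -0.10. The 20S median ranged from 0.24 to 0.37 without single mice and was 0.17 with library size alone, and the immunoproteasome median ranged from -0.36 to -0.14 and was -0.39. The log2 ratio differences without single mice were -0.58 to -0.28 for *Psmb8* to *Psmb5*, -0.69 to -0.36 for *Psmb9* to *Psmb6* and -0.84 to -0.60 for *Psmb10* to *Psmb7*. Signs turned only in genes that were not called. Of the 35 genes of the 20S core and 19S particle, 33 lay above 0 in the reported fit and 31 with library size alone. Without vehicle mouse 1, ISOGK mouse 1 or ISOGK mouse 3, 35 did, and without ISOGK mouse 4, 34 did. The signs that turned among the other genes followed by name are given here. With library size alone *Psme1* was at -0.11, *Psme3* at -0.020, *Psme4* at -0.078 and *Pomp* at -0.019, and with the GC content and length correction *Psme1* was at -0.047. Without single mice *Psmb8* ranged from -0.22 to 0.13, *Psme1* from -0.046 to 0.12, *Psme2* from -0.18 to 0.034, *Psme4* from -0.048 to 0.11 and *Nfe2l2* from -0.18 to 0.10. The cause of these changes was not tested.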
